A study of Mus musculus with 12 samples.

Results

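Ribosome footprints were compared between RAW264 cells given LPS with dexamethasone (DEX) and RAW264 cells given LPS alone. RAW264 is a mouse macrophage line. The LPS + DEX cells received LPS at 100 ng/ml and dexamethasone at 10 µM for 30 min, and the LPS cells received LPS at 100 ng/ml for 30 min. The labels name no vehicle. Untreated (basal) cells were profiled as well, and all groups were exposed to cycloheximide at 100 µg/ml before extraction. Each group held 2 footprint (Ribo-Seq) libraries and 2 libraries of polyadenylated mRNA, which the series describes as independent biological replicates. All values are CPM, the reads of a gene scaled to a common library total. Of 9621 genes listed, 8847 reached 10 reads, reckoned at the median library depth, in 2 of the 6 footprint libraries, and these were described and tested. No measured footprint change was used to choose them.

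Ribosome profiling sequences the pieces of mRNA that translating ribosomes protect from nuclease, so a gene's footprints follow both how much of its mRNA is present and how densely ribosomes occupy it. LPS is bound by CD14 and TLR4 and switches on NF-kB and the MAP kinases, which induce cytokines within minutes. Dexamethasone binds the glucocorticoid receptor, a transcription factor known in macrophages for inducing genes that restrain these pathways, such as the MAP kinase phosphatase gene Dusp1, and for repressing inflammatory genes. Both kinds of gene can therefore change within the same short time.

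The footprint libraries held 1653342 and 1833560 reads in LPS + DEX cells, 829415 and 821946 reads in LPS cells, and 1310291 and 1520612 reads in basal cells. Depth therefore moved with the comparison, and its part in the results was not tested. One read was worth 0.605 and 0.545 CPM in the LPS + DEX libraries and 1.21 and 1.22 CPM in the LPS libraries. Rank correlations over genes were 0.983 between the LPS + DEX libraries, 0.964 between the LPS libraries and 0.948 to 0.957 between the groups. Among mRNA libraries, basal replicate 1 was the odd one, with rank correlations of 0.781 to 0.831 to each of the rest, and the mRNA results are therefore also given from the LPS + DEX and LPS libraries alone. All 10 macrophage markers checked were present, at a summed 6331 and 6494 CPM in LPS + DEX cells, 6943 and 6880 CPM in LPS cells and 6670 and 7333 CPM in basal cells. No listed gene belonged to the markers of T and NK cells or of neutrophils and mast cells. The only B cell marker listed, Cd22, stayed at or below 3.62 CPM in footprints. Its mRNA was at 113 CPM in basal replicate 1 and at 4.35 CPM or less in every other mRNA library.

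DEX added to LPS raised the footprints of 278 genes and lowered those of 314 genes, at an adjusted p under 0.05 in limma (3.14% and 3.55% of 8847 genes tested, 6.69% together). The rises were mostly small, with a median log2 difference of 0.63 and 58 genes at least 1 unit up on the log2 scale. The falls were larger, with a median of -0.80, and 126 genes were at least 1 unit down. The median over all genes tested was 0.02. Calls counted below in each gene list are to be read against the 3.14% higher and 3.55% lower over all genes tested. All log2 differences are LPS + DEX minus LPS, on log2(CPM + 1), so those of low genes are understated. Calls rested on both libraries of each group. Without LPS + DEX replicate 1 there were 58 higher and 111 lower genes, without LPS + DEX replicate 2 there were 35 and 68, without LPS replicate 1 there were 169 and 148, and without LPS replicate 2 there were 157 and 139. Of the called genes, 29 that rose and 62 that fell kept their call in each of these 4 fits. The groups of libraries overlapped for none of the called genes, so leaving out a library could not turn a direction. A call is termed stable below where it held in all 4 fits.

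**Figure D1:**
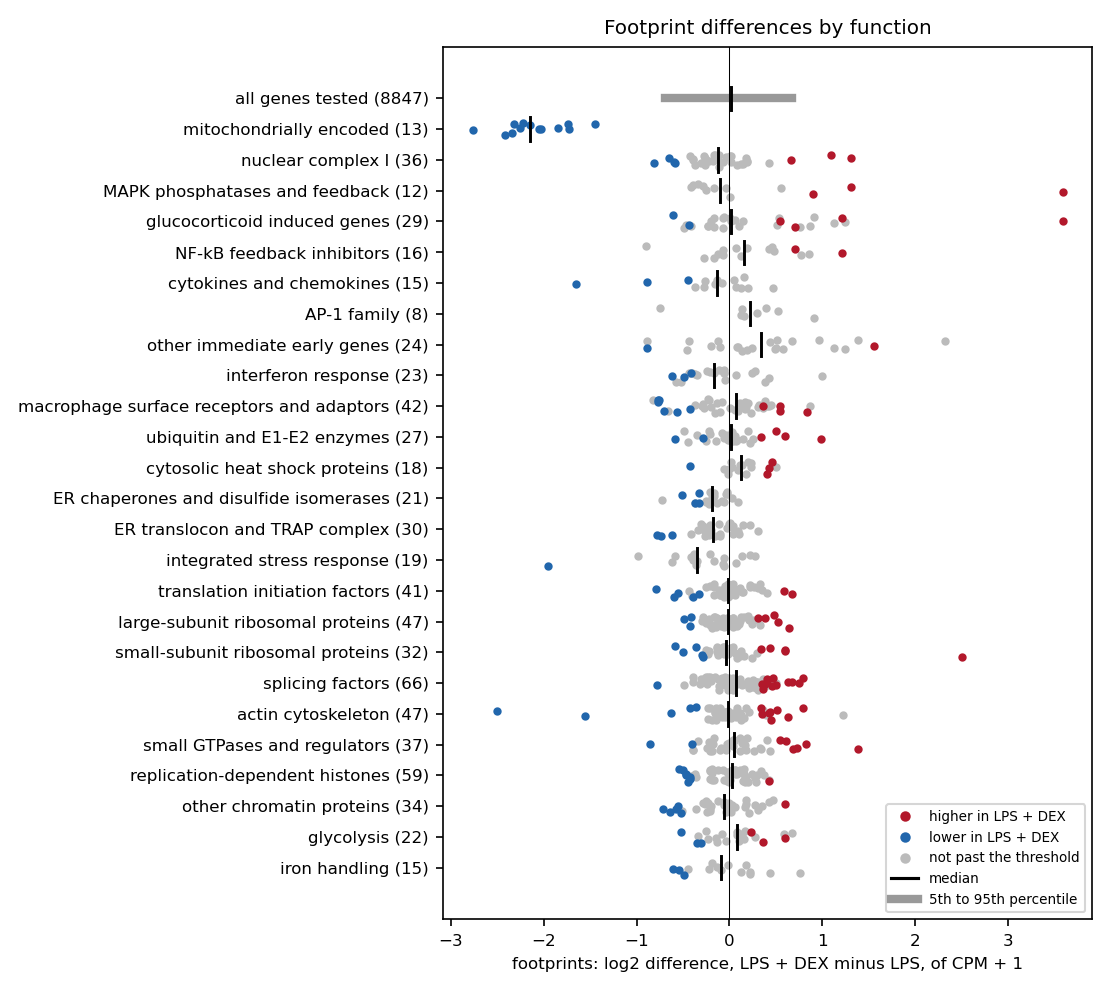
Footprint log2 differences (LPS + DEX minus LPS, of CPM + 1) of the tested members of 25 gene lists, with the number tested in brackets. Each point is a gene, coloured where it passed the threshold, the black bar is the median, and the grey band spans the 5th to the 95th percentile of all 8847 genes. All 13 mitochondrially encoded genes lie to the left of 0, and Dusp1 stands farthest to the right.

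Dusp1, whose product dephosphorylates and inactivates p38 and JNK, rose most of all genes tested. Its footprints stood at 223 and 221 CPM in LPS + DEX libraries, against 16.9 and 18.2 CPM in LPS libraries and 7.63 and 5.26 CPM in basal libraries. The log2 difference was 3.59 ± 0.23 (SE, n = 2 libraries each; limma adjusted p = 3.68e-07), and the call was stable. The 2 LPS + DEX libraries were nearly equal and far above all 4 others. Its mRNA was at 441 and 483 CPM in LPS + DEX libraries and at 41.4 and 54.9 CPM in LPS libraries.

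A second MAP kinase phosphatase gene, Dusp2, had 40.5 and 56.7 CPM in LPS + DEX libraries and 18.1 and 19.5 CPM in LPS libraries (log2 difference 1.31 ± 0.29, limma adjusted p = 0.0146). Dusp6, which encodes a phosphatase that acts on ERK, had 44.1 and 33.8 CPM in LPS + DEX libraries and 16.9 and 24.3 CPM in LPS libraries (0.90 ± 0.25, limma adjusted p = 0.0481). These 3 genes rose and none fell among the 12 tested members of a list of MAP kinase phosphatases and feedback proteins, whose median was -0.10. The groups of libraries did not overlap for any of the 3, as for all 278 raised and 314 lowered genes. Dusp3, chosen after its values were seen, did not pass, at 82.3 and 79.6 CPM in LPS + DEX libraries and 50.6 and 59.6 CPM in LPS libraries (limma adjusted p = 0.0508). The other 8 members lay between -0.41 and 0.01. Under median-of-ratios scaling, and under scaling to reads outside the mitochondrially encoded genes, 2 members rose. The Dusp2 call was lost without any one of the 4 libraries, at 1.07 to 1.55, and that of Dusp6 without either LPS + DEX library or LPS replicate 1, at 0.65 to 1.15.

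The promoters of Dusp1 and of the NF-kB inhibitor genes Nfkbia and Tnfaip3 are shown because these 3 genes carried the rises with the best known roles in damping the LPS response. They run 5′ to 3′ up to the base before the transcription start, from RefSeq (build GRCm38.p6). Capitals mark a cyclic AMP response element (TGACGTCA) in Dusp1 and an NF-kB site in the other 2, sought as GGG, any 2 bases and TTTCC on either strand.
Dusp1, chr17:26508473-26508672, minus strand: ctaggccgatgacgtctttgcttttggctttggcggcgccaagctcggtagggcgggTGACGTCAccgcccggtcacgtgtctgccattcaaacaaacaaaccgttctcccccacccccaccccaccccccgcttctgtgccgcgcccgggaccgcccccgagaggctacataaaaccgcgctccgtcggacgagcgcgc
Nfkbia, chr12:55492648-55492747, minus strand: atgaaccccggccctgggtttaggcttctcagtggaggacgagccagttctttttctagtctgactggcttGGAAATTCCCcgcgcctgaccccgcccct
Tnfaip3, chr10:19015411-19015510, minus strand: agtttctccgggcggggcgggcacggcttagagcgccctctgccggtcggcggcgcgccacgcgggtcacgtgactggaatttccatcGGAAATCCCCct
The matches begin at -143 in Dusp1, at -29 in Nfkbia and at -12 in Tnfaip3. Over the 250 bases before the start and both strands, TGACGTCA was found in 1.55% of 32851 RefSeq promoters and the NF-kB letters in 1.41%. The full glucocorticoid response element, sought as AGAACA, any 3 bases and TGTTCT, was in 0.00913% of them and in none of these 3. Among genes with a promoter entry, 6 of 200 genes that rose held TGACGTCA (3%, against 3.18% of 6855 tested genes) and 8 held the NF-kB letters (4%, against 1.75%). Of 220 genes that fell, 3 held TGACGTCA (1.36%) and 7 the NF-kB letters (3.18%). A match is a string of letters and not a shown binding site.

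A pair of NF-kB inhibitors rose beside Dusp1. Nfkbia, which encodes the inhibitor that holds NF-kB in the cytoplasm, was at 859 and 813 CPM in LPS + DEX libraries, against 500 and 523 CPM in LPS libraries and 217 and 226 CPM in basal libraries (log2 difference 0.71 ± 0.09, limma adjusted p = 0.000269, stable). Tnfaip3, the gene of the ubiquitin-editing enzyme A20, was at 107 and 88.9 CPM in LPS + DEX libraries, against 38.6 and 45.0 CPM in LPS libraries and 11.4 and 19.1 CPM in basal libraries (1.21 ± 0.24, limma adjusted p = 0.00755). For both genes every LPS + DEX library was above every LPS library, and every LPS library above every basal one. No member fell among 16 NF-kB feedback inhibitors tested, and their median was 0.16. The Tnfaip3 call was lost without either LPS + DEX library or LPS replicate 1, at 1.07 to 1.34. Nfkbiz, chosen after its values were seen, had 162 and 114 CPM in LPS + DEX libraries and 78.4 and 80.3 CPM in LPS libraries (limma adjusted p = 0.0558).

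**Figure D2:**
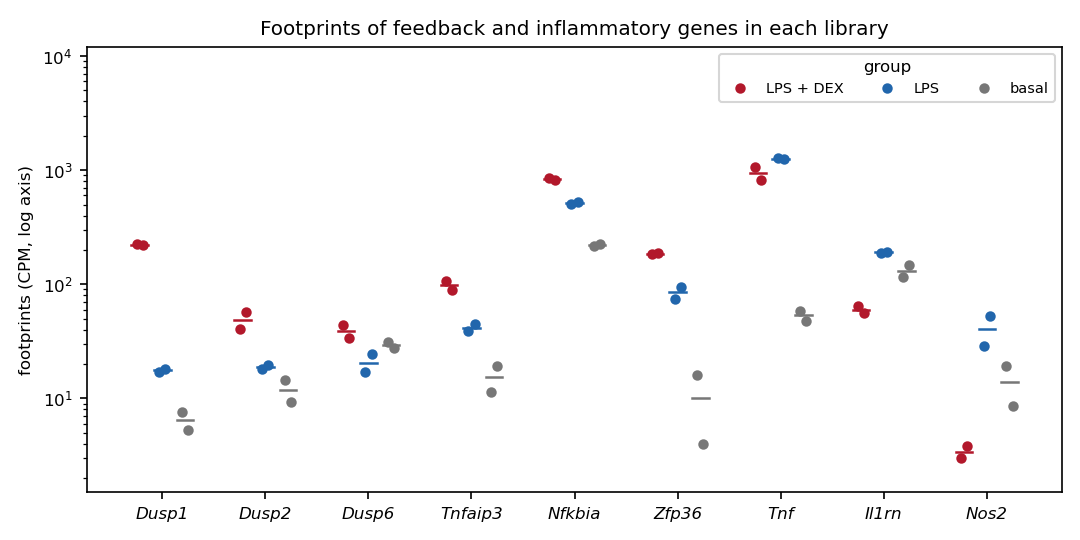
Footprints (CPM, log axis) of 9 feedback and inflammatory genes in each of the 2 LPS + DEX, 2 LPS and 2 basal libraries; points are libraries and bars are group means. Dusp1 is at 223 and 221 CPM with DEX against 16.9 and 18.2 CPM with LPS alone, while Nos2 is at 3.02 and 3.82 CPM against 28.9 and 52.3 CPM.

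Few other genes known to be induced by glucocorticoids passed the test in footprints. Of 29 tested members of such a list, 4 rose (Dusp1, Tnfaip3, Nfkbia and Cd14), 2 fell (Mt1 and Cebpb) and 23 did not pass, with a median of 0.01. In mRNA 21 of the 29 had a positive difference, with a median of 0.24, against 53.1% and 0.02 over all genes tested. The list was made with earlier results of these data known. It includes Sdc4 and Ccrl2, whose mRNA passed with only the 4 libraries compared, so this count is a description. Mt1, which encodes a metallothionein that binds zinc and copper, fell to 120 and 130 CPM in LPS + DEX libraries, against 184 and 198 CPM in LPS libraries (-0.61 ± 0.13, limma adjusted p = 0.00958). Cebpb, the gene of a transcription factor of inflammatory genes, fell to 206 and 187 CPM, against 289 and 243 CPM in LPS libraries (-0.43 ± 0.12, limma adjusted p = 0.0473). Its mRNA stood higher with DEX, at 428 and 340 CPM in LPS + DEX libraries and 233 and 256 CPM in LPS libraries. Without each library in turn the calls of Mt1, Cebpb and Cd14 were lost at least without either LPS + DEX library, at -0.66 to -0.56, -0.56 to -0.31 and 0.52 to 0.58.

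The textbook targets Per1, Fkbp5, Klf9 and Tsc22d3 did not pass the threshold. Per1, a clock gene with a glucocorticoid response element, had 53.2 and 36.5 CPM of footprints in LPS + DEX libraries and 27.7 and 34.1 CPM in LPS libraries (0.51 ± 0.26, limma adjusted p = 0.288). Fkbp5, which encodes a co-chaperone of the receptor, had 65.3 and 51.8 CPM in LPS + DEX libraries and 60.3 and 77.9 CPM in LPS libraries. Klf9, a Krüppel-like factor gene, had 10.3 and 13.1 CPM in LPS + DEX libraries and 4.82 and 8.52 CPM in LPS libraries. Tsc22d3, which encodes the glucocorticoid-induced leucine zipper protein, had 6.65 and 7.63 CPM in LPS + DEX libraries, against 2.41 and 2.43 CPM, or 2 reads, in each LPS library. Nr3c1, the receptor's own gene, had 41.1 and 26.2 CPM in LPS + DEX libraries and 28.9 and 29.2 CPM in LPS libraries.

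Cytokine footprints fell or did not pass. Il1rn, the gene of the interleukin-1 receptor antagonist, fell most, to 64.1 and 55.6 CPM in LPS + DEX libraries, against 188 and 192 CPM in LPS libraries and 116 and 148 CPM in basal libraries (-1.65 ± 0.15, limma adjusted p = 9.86e-06, stable). Its LPS + DEX libraries were thus below the basal ones as well. Spp1, which encodes the secreted matrix protein osteopontin, was at 779 and 708 CPM in LPS + DEX libraries and 1407 and 1346 CPM in LPS libraries (-0.89 ± 0.10, limma adjusted p = 7.13e-05, stable). Tnf was at 1057 and 813 CPM in LPS + DEX libraries, against 1267 and 1263 CPM in LPS libraries and 58.8 and 48.0 CPM in basal libraries (-0.45 ± 0.13, limma adjusted p = 0.0485). This was the smallest of the 3 falls, and it was lost without any one of the 4 libraries, at -0.64 to -0.26. None rose among the 15 cytokines and chemokines tested, and the median was -0.13. The neutrophil attractant gene Cxcl2 had 284 and 162 CPM in LPS + DEX libraries and 226 and 226 CPM in LPS libraries, so its groups overlapped. Ccl3 had 326 and 285 CPM in LPS + DEX libraries and 312 and 251 CPM in LPS libraries, and Ccl4 had 278 and 228 CPM in LPS + DEX libraries and 292 and 366 CPM in LPS libraries.

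Enzymes that make nitric oxide, lipid mediators and itaconate moved in both directions. Nos2, the inducible nitric oxide synthase gene, had 3.02 and 3.82 CPM in LPS + DEX libraries, against 28.9 and 52.3 CPM in LPS libraries and 19.1 and 8.55 CPM in basal libraries (-3.18 ± 0.43, limma adjusted p = 0.000425, stable). Its mRNA was at most 7.91 CPM in any of these 4 LPS + DEX and LPS libraries. Acod1, which encodes the enzyme that makes itaconate, fell to 127 and 85.1 CPM in LPS + DEX libraries, against 163 and 156 CPM in LPS libraries (-0.61 ± 0.16, limma adjusted p = 0.0358). Ptges3, whose product is a co-chaperone of HSP90 also named as a prostaglandin E synthase, fell to 496 and 393 CPM, against 576 and 614 CPM in LPS libraries. Pla2g4a, which encodes the cytosolic phospholipase that frees arachidonic acid, rose to 473 and 494 CPM, against 359 and 328 CPM in LPS libraries (0.49 ± 0.10, limma adjusted p = 0.00813). The cyclooxygenase gene Ptgs2 did not pass, at 41.1 and 36.0 CPM in LPS + DEX libraries and 28.9 and 38.9 CPM in LPS libraries. Of 11 genes tested in this group, 1 rose and 3 fell. The calls of Acod1, Ptges3 and Pla2g4a were lost without LPS + DEX replicate 2, among other single libraries, at log2 differences of -0.90 to -0.32, -0.60 to -0.26 and 0.43 to 0.56 over the 4 fits.

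Immediate early genes, the first wave of transcription after a stimulus, mostly did not pass. Of 8 AP-1 genes tested none passed, 7 were above 0 and the median was 0.23, while 4660 of all 8847 genes tested were above 0 and 4187 below. Counts of members above or below 0 include genes that did not pass and are a description. Fos had 36.9 and 52.4 CPM in LPS + DEX libraries, against 20.5 and 25.6 CPM in LPS libraries and 2.29 and 3.95 CPM in basal libraries (limma adjusted p = 0.134). Jun had 158 and 146 CPM in LPS + DEX libraries, against 98.9 and 112 CPM in LPS libraries (limma adjusted p = 0.0913), and Junb had 330 and 304 CPM, against 251 and 263 CPM in LPS libraries (limma adjusted p = 0.20). Of 24 other immediate early genes, 17 were above 0 and the median was 0.34, with 1 member up and 1 down. Id3, which encodes an inhibitor of DNA binding, rose to 30.2 and 42.5 CPM in LPS + DEX libraries, against 10.8 and 12.2 CPM in LPS libraries (1.56 ± 0.37, limma adjusted p = 0.0224). Plk2, the gene of a polo-like kinase, fell to 203 and 142 CPM, against 316 and 314 CPM in LPS libraries (-0.89 ± 0.15, limma adjusted p = 0.00257). Neither call was stable: that of Id3 was lost without any one of the 4 libraries, at 1.32 to 1.80, and that of Plk2 without LPS + DEX replicate 2, at -0.63.

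Among 26 mRNA decay factors, Zfp36l2 rose and Tnrc6b fell, with a median of 0.14. Zfp36l2 encodes a protein that binds AU-rich elements and directs mRNAs to decay. Its footprints were at 132 and 144 CPM in LPS + DEX libraries and 68.7 and 82.7 CPM in LPS libraries (0.86 ± 0.15, limma adjusted p = 0.00315). Its relative Zfp36, the tristetraprolin gene, had 184 and 188 CPM in LPS + DEX libraries, against 74.8 and 94.9 CPM in LPS libraries and 16.0 and 3.95 CPM in basal libraries. The Zfp36 groups did not overlap, but the difference of 1.13 ± 0.38 did not pass (limma adjusted p = 0.0976), and its basal libraries differed widely from each other. Tnrc6b, which encodes a scaffold of microRNA silencing, had 56.9 and 61.6 CPM in LPS + DEX libraries and 104 and 117 CPM in LPS libraries (-0.88 ± 0.17, limma adjusted p = 0.00576). Both calls were lost without LPS + DEX replicate 2, at 0.73 to 0.99 for Zfp36l2 and -0.97 to -0.80 for Tnrc6b over the 4 fits.

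A list made up mainly of macrophage surface proteins split, with 4 of 42 tested genes higher and 6 lower and a median of 0.07. It also holds lysozyme genes, with Lyz2 among the falls, and the transcription factor gene Spi1. These were 9.52% and 14.3%, against 3.14% and 3.55% of all genes tested. Cd14, the gene of the LPS co-receptor, rose to 919 and 877 CPM in LPS + DEX libraries, against 626 and 601 CPM in LPS libraries (0.55 ± 0.10, limma adjusted p = 0.00397). Tlr2, which encodes a receptor of bacterial lipoproteins, rose to 238 and 243 CPM, against 165 and 163 CPM in LPS libraries (0.55 ± 0.11, limma adjusted p = 0.00734). The Fc receptor gene Fcgr3 rose to 65.9 and 83.4 CPM, against 41.0 and 41.4 CPM in LPS libraries, and Csf1r, the receptor of the growth factor M-CSF, to 1056 and 1173 CPM, against 879 and 858 CPM. The C-type lectins, which recognise microbial sugars, went the other way. Clec4e fell to 68.3 and 53.5 CPM, against 107 and 101 CPM in LPS libraries (-0.77 ± 0.16), and Clec4d fell to 119 and 104 CPM, against 203 and 175 CPM (-0.76 ± 0.12). The scavenger receptor gene Msr1 fell to 211 and 185 CPM, against 368 and 309 CPM (-0.77 ± 0.14), and the fractalkine receptor gene Cx3cr1 to 178 and 151 CPM, against 252 and 285 CPM (-0.71 ± 0.15). Fcer1g, the signalling chain of several such receptors and chosen after its values were seen, fell to 624 and 605 CPM, against 902 and 917 CPM (-0.57 ± 0.10). The lysozyme gene Lyz2 fell to 1924 and 1920 CPM, against 2592 and 2582 CPM in LPS libraries (-0.43 ± 0.08, limma adjusted p = 0.00397). None of these 10 calls was stable, and each was lost without LPS + DEX replicate 2.

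Il6ra, Il6st and Cd86 act in cytokine signalling and costimulation; the last 2 were chosen after their values were seen. Il6ra, which encodes the receptor of an inflammatory interleukin and was among the 15 largest rises, stood at 64.1 and 60.5 CPM in LPS + DEX libraries, against 25.3 and 14.6 CPM in LPS libraries (1.64 ± 0.24, limma adjusted p = 0.00101, stable). Il6st, which encodes its signalling partner gp130, rose to 74.4 and 91.6 CPM in LPS + DEX libraries, against 48.2 and 56.0 CPM in LPS libraries (0.66 ± 0.17, limma adjusted p = 0.0314). Cd86, the gene of a costimulatory ligand of T cells, rose to 22.4 and 22.9 CPM, against 12.1 and 6.08 CPM in LPS libraries (1.30 ± 0.36, limma adjusted p = 0.0469). The calls of Il6st and Cd86 were lost without either LPS + DEX library, at 0.51 to 0.81 and 0.86 to 1.74.

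Interferon-response and antigen-presentation genes had 3 falls and no rise among 23 tested, with a median of -0.17. Ifitm3, which encodes a membrane protein that blocks virus entry, fell to 256 and 268 CPM in LPS + DEX libraries, against 438 and 370 CPM in LPS libraries (-0.62 ± 0.11, limma adjusted p = 0.00301). The class I histocompatibility gene H2-K1 fell to 220 and 258 CPM in LPS + DEX libraries, against 339 and 328 CPM in LPS libraries (-0.48 ± 0.12). Its relative H2-D1 fell to 323 and 333 CPM in LPS + DEX libraries, against 416 and 462 CPM in LPS libraries (-0.42 ± 0.12). H2-K1 and H2-D1 are closely related in sequence, so reads may have been split between them. All 3 calls were lost without either LPS + DEX library or LPS replicate 1.

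Genes of the ubiquitin system changed in both directions, with 4 of 27 ubiquitin and E1-E2 genes higher, 2 lower and a median of 0.02. Ubb, which encodes a chain of ubiquitin repeats, was at 905 and 1020 CPM in LPS + DEX libraries, against 634 and 636 CPM in LPS libraries and 970 and 980 CPM in basal libraries (0.60 ± 0.08, limma adjusted p = 0.000628, stable). Its LPS + DEX libraries lay near the basal level, and its LPS libraries below both. Uba1, which encodes the enzyme that activates ubiquitin, rose to 510 and 511 CPM in LPS + DEX libraries, against 380 and 425 CPM in LPS libraries. Rps27a, which encodes ubiquitin fused to a ribosomal protein, fell to 1133 and 1081 CPM in LPS + DEX libraries, against 1336 and 1364 CPM in LPS libraries. The calls of Uba1 and Rps27a were lost without either LPS + DEX library.

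Chaperone genes of the cytosol and of the endoplasmic reticulum were described separately, and the difference between the lists was not tested. Among 18 cytosolic heat shock genes 3 rose and 1 fell, with a median of 0.12. Hspa8, the constitutive HSP70 gene, was at 6516 and 6470 CPM in LPS + DEX libraries, against 4561 and 4865 CPM in LPS libraries (0.46 ± 0.07, limma adjusted p = 0.000894, stable). Hsp90ab1 was at 4612 and 4294 CPM, against 3243 and 3481 CPM (0.41 ± 0.08), and Cdc37, whose product brings kinases to HSP90, at 404 and 384 CPM, against 299 and 285 CPM (0.43 ± 0.11). HSP90, HSP70 and Ptges3 also belong to the complex that holds the unliganded glucocorticoid receptor. No CCT chaperonin gene passed, and all 8 lay between -0.25 and 0.15. Of 21 chaperones and disulfide isomerases of the endoplasmic reticulum none rose, 4 fell and 19 were below 0, with a median of -0.19. Pdia6 was at 1603 and 1470 CPM in LPS + DEX libraries and 2193 and 2181 CPM in LPS libraries (-0.51 ± 0.09, limma adjusted p = 0.00283), and Hsp90b1 at 3274 and 2943 CPM and 3917 and 3871 CPM (-0.33 ± 0.07, limma adjusted p = 0.0145). Canx and Manf fell by 0.33 and 0.37 on the log2 scale, and the BiP gene Hspa5, chosen after its values were seen, had 4744 and 4253 CPM in LPS + DEX libraries and 5011 and 4847 CPM in LPS libraries without passing. Apart from Hspa8, these calls were lost without LPS + DEX replicate 2.

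Translocon genes fell in 3 of 30 (10%) and integrated stress response genes in 1 of 19 (5.26%), against 3.55% of all genes tested. Neither list had a rise. Sec63, which encodes a partner of the Sec61 channel, was at 103 and 103 CPM in LPS + DEX libraries and 176 and 179 CPM in LPS libraries (-0.78 ± 0.12, limma adjusted p = 0.00151, stable). Ssr3, a subunit of the translocon-associated protein complex, was at 162 and 166 CPM in LPS + DEX libraries and 256 and 294 CPM in LPS libraries (-0.74 ± 0.11, limma adjusted p = 0.00105, stable). Sec61g, a channel subunit, was at 92.5 and 90.0 CPM in LPS + DEX libraries and 136 and 145 CPM in LPS libraries (-0.62 ± 0.13, limma adjusted p = 0.0105). These were the only 3 calls among 30 genes of the group, whose median was -0.18. Of 19 genes of the integrated stress response, 15 were below 0 and the median was -0.35, but only Trib3, a pseudokinase gene induced by ATF4 and CHOP, fell, at 5.44 and 1.09 CPM in LPS + DEX libraries and 12.1 and 14.6 CPM in LPS libraries (-1.96 ± 0.55, limma adjusted p = 0.0475). The Trib3 call was lost without LPS + DEX replicate 2 or either LPS library, at -2.77 to -1.15 over the 4 fits, and that of Sec61g without either LPS + DEX library or LPS replicate 2, at -0.66 to -0.57.

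The 13 protein-coding genes of the mitochondrial genome changed together. All 13 fell, every call was stable, and the log2 differences ran from -2.76 (mt-Nd1) to -1.44 (mt-Atp8). Summed over the 13 genes, footprints were at 2168 and 1897 CPM in LPS + DEX libraries, against 8681 and 9481 CPM in LPS libraries and 4111 and 3653 CPM in basal libraries. The LPS libraries were therefore the highest and the LPS + DEX libraries the lowest of the 3 groups. Among complex I subunits, mt-Nd1 had 39.3 and 28.4 CPM in LPS + DEX libraries, against 227 and 238 CPM in LPS libraries and 103 and 75.0 CPM in basal libraries (-2.76 ± 0.18, limma adjusted p = 4.39e-07). The cytochrome oxidase gene mt-Co1 had 585 and 457 CPM in LPS + DEX libraries, against 2394 and 2537 CPM in LPS libraries and 974 and 666 CPM in basal libraries (-2.25 ± 0.15, limma adjusted p = 3.68e-07). Of complex III, mt-Cytb had 197 and 202 CPM in LPS + DEX libraries, against 1002 and 1139 CPM in LPS libraries (-2.41 ± 0.14, limma adjusted p = 1.78e-07). Of the ATP synthase, mt-Atp6 had 214 and 182 CPM in LPS + DEX libraries, against 950 and 1062 CPM in LPS libraries (-2.34 ± 0.10, limma adjusted p = 1.25e-08). mt-Atp8 had 134 and 118 CPM in LPS + DEX libraries, against 332 and 355 CPM in LPS libraries and 369 and 334 CPM in basal libraries, whose ranges overlapped.

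These genes are read by mitochondrial ribosomes, which cycloheximide does not block. Their mRNA summed to 23014 and 43334 CPM in LPS + DEX libraries, against 62847 and 42104 CPM in LPS libraries and 60295 and 76920 CPM in basal libraries, so the LPS + DEX and LPS mRNA libraries overlapped while their footprint libraries did not. All 13 mRNA differences were below 0, with a median of -0.67, and none passed in limma. Fewer ribosomes on each mRNA and less of the mRNAs cannot be told apart from footprints alone. Scaling to reads outside these genes left all 13 calls in place and moved the median of all genes tested to 0.01.

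**Figure D3:**
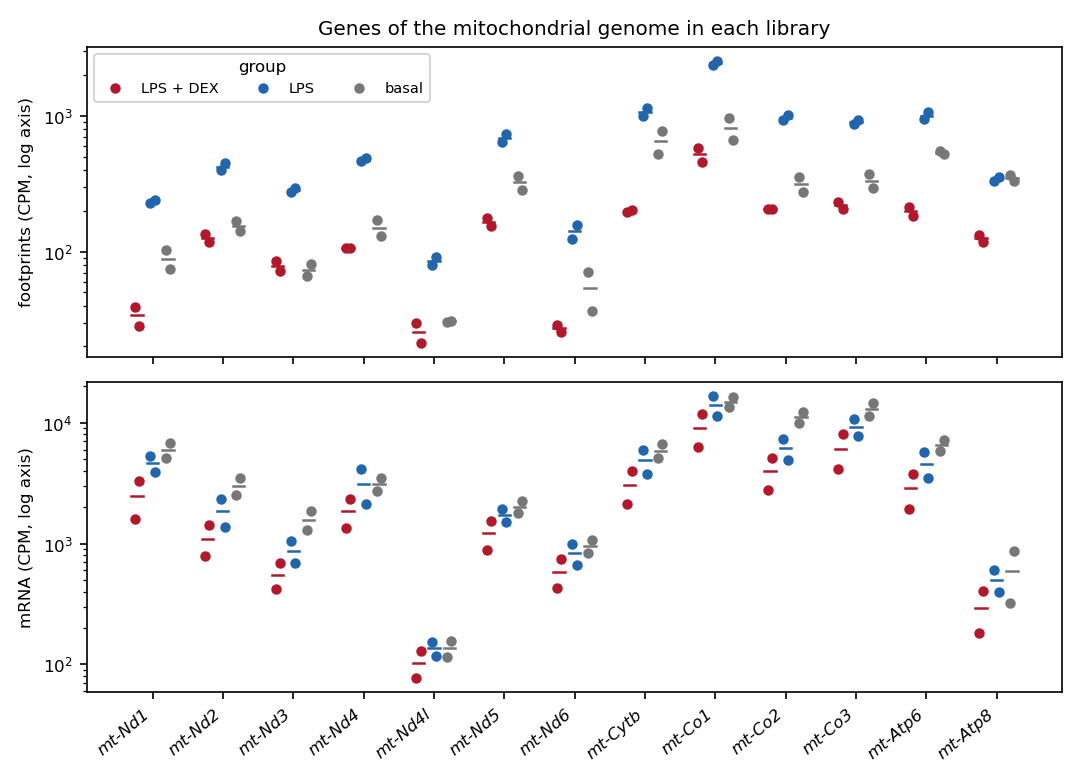
Footprints (upper panel) and mRNA (lower panel) of the 13 mitochondrially encoded protein genes, in CPM on log axes, in each of the 2 LPS + DEX, 2 LPS and 2 basal libraries; bars are group means. In the upper panel the LPS + DEX points lie below the LPS points for every gene, as for mt-Nd1 at 39.3 and 28.4 CPM against 227 and 238 CPM.

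The nuclear genes of the respiratory chain did not follow the mitochondrial ones. Of 36 nuclear complex I genes 3 rose and 4 fell, with a median of -0.12. Ndufb7 rose to 153 and 174 CPM in LPS + DEX libraries, against 68.7 and 62.0 CPM in LPS libraries and 162 and 147 CPM in basal libraries (1.31 ± 0.13, limma adjusted p = 4.69e-05, stable). Ndufb2 rose to 67.1 and 71.5 CPM, against 35.0 and 29.2 CPM in LPS libraries and 67.2 and 73.7 CPM in basal libraries (1.09 ± 0.17, limma adjusted p = 0.00189), a call lost without LPS + DEX replicate 2, at 1.05. Ndufab1, the acyl carrier protein gene, fell to 113 and 118 CPM, against 222 and 186 CPM in LPS libraries and 111 and 105 CPM in basal libraries (-0.81 ± 0.13, limma adjusted p = 0.0017, stable). In each of these 3 genes the LPS libraries stood apart from the LPS + DEX and basal libraries. Sdhb, the iron-sulfur subunit of succinate dehydrogenase, was at 296 and 286 CPM in LPS + DEX libraries, 134 and 135 CPM in LPS libraries and 257 and 234 CPM in basal libraries (1.11 ± 0.11, limma adjusted p = 2.81e-05, stable). For Sdhb both LPS + DEX libraries were above both basal libraries, and the LPS libraries were the lowest. Sdha rose by 0.37, a call lost without any one library, and Sdhc and Sdhd did not pass, with overlapping groups. None of 9 nuclear complex III genes passed, Cox6b1 was the only one of 12 nuclear complex IV genes to pass (-0.36), and Atp5f1 (-0.43) and Atp5h (-0.41) fell among 17 ATP synthase genes. In the import machinery Tomm7 fell to 114 and 124 CPM in LPS + DEX libraries, against 228 and 256 CPM in LPS libraries (-1.01 ± 0.12, limma adjusted p = 0.000131, stable), while Tomm40, the pore gene, rose (0.60) and Tomm5 (-0.65) and Tomm22 (-0.61) fell. The citrate synthase gene Cs (0.42) and the fumarase gene Fh1 (0.39) rose among 17 genes of the citric acid cycle. The calls of the genes given in this paragraph with a log2 value alone were all lost without LPS + DEX replicate 2.

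Ribosomal protein genes changed in both directions around a median near 0. In the large subunit 5 of 47 rose and 3 fell (median -0.01), and in the small subunit 5 of 32 rose and 5 fell (median -0.04). The acidic stalk proteins rose: Rplp1 to 384 and 388 CPM in LPS + DEX libraries, against 270 and 266 CPM in LPS libraries (0.52 ± 0.09), Rplp0 by a log2 difference of 0.38 and Rplp2, chosen after its values were seen, by 0.30. Rpl30 rose to 856 and 837 CPM, against 516 and 569 CPM in LPS libraries (0.64 ± 0.09, limma adjusted p = 0.000461, stable). Rps15a fell to 1237 and 1255 CPM in LPS + DEX libraries, against 1802 and 1729 CPM in LPS libraries (-0.50 ± 0.07, limma adjusted p = 0.00101, stable), and Rpl27, Rpl41 and Rpl39 fell by 0.42, 0.42 and 0.48. Rps20 (0.59), Rps12 (0.59), Rps16 (0.44), Rps27 (-0.59) and Rps13 (-0.30) changed too. Rps4l, a copy of the small-subunit gene Rps4x, had 13.9 and 15.3 CPM in LPS + DEX libraries and 1.21 and 2.43 CPM, or 1 and 2 reads, in LPS libraries, and reads shared with Rps4x leave its value uncertain. Many ribosomal protein genes have near-identical pseudogene copies, which leaves their counts uncertain in the same way. Mitochondrial ribosomal protein genes had 3 falls among 77 (Mrpl40, Mrps10 and Mrpl52, -0.62 to -0.54) and no rise. Apart from Rpl30 and Rps15a, these calls were lost without LPS + DEX replicate 2.

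Translation factors also split. Eef2, the gene of the translocase that moves the ribosome along, rose to 3547 and 3667 CPM in LPS + DEX libraries, against 2397 and 2252 CPM in LPS libraries and 2710 and 2596 CPM in basal libraries (0.63 ± 0.07, limma adjusted p = 9.67e-05, stable). Btf3, which encodes a subunit of the nascent polypeptide-associated complex, fell to 699 and 723 CPM, against 1077 and 1168 CPM in LPS libraries (-0.66 ± 0.08, limma adjusted p = 0.000221, stable). Among 41 initiation factor genes 2 rose and 5 fell, with a median of -0.01. Eif2s2, the beta subunit of the factor that carries initiator tRNA, fell to 327 and 286 CPM in LPS + DEX libraries, against 524 and 534 CPM in LPS libraries (-0.79 ± 0.10, limma adjusted p = 0.000221, stable). The cap-binding factor gene Eif4e fell to 189 and 170 CPM, against 287 and 259 CPM in LPS libraries (-0.60 ± 0.12, limma adjusted p = 0.00736). Eif3m (0.68) and Eif6 (0.59) rose, and Eif1a (-0.56) and Eif4g2 (-0.39) were among the further falls. Eif5a (-0.44), which was listed with the elongation factors, fell as well. Of 20 aminoacyl-tRNA synthetase genes Vars rose (0.51) and Sars fell (-0.54). Apart from Eef2, Btf3 and Eif2s2, these calls were lost without LPS + DEX replicate 2.

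Small GTPases of the Arf family, which recruit coats to Golgi and plasma membranes, were looked at as a group. Of the genes Arf1 to Arf6, 5 rose, all 6 were above 0 and their median was 0.71; this grouping was made after the values were seen. Without either LPS + DEX library 2 of the 6 were called higher, and without either LPS library 3 were. Arf3 had 103 and 96.5 CPM in LPS + DEX libraries, against 37.4 and 37.7 CPM in LPS libraries and 95.4 and 69.7 CPM in basal libraries (1.39 ± 0.17, limma adjusted p = 0.000249, stable). Arf1 had 435 and 406 CPM in LPS + DEX libraries, against 226 and 247 CPM in LPS libraries and 420 and 447 CPM in basal libraries (0.83 ± 0.10, limma adjusted p = 0.000161, stable). For both genes every LPS library lay below every LPS + DEX and basal library. Arf4 (0.72), Arf6 (0.69) and Arf5 (0.61) rose as well, and Arf2 did not pass, at 33.3 and 19.6 CPM in LPS + DEX libraries and 20.5 and 13.4 CPM in LPS libraries. The mRNA differences of the 6 genes had a median of 0.01. Some related Arl genes that passed were chosen after their values were seen, and the Arl family as a whole was not counted. Among those chosen, Arl2 (1.33), Arl8a (0.78) and Arl8b (0.47) rose and Arl1 (-0.61) fell. Over the whole list of 37 small GTPases and regulators 6 rose and 2 fell, with a median of 0.05. Rab11a, a marker of recycling endosomes, fell to 100 and 101 CPM in LPS + DEX libraries, against 181 and 186 CPM in LPS libraries (-0.86 ± 0.12, limma adjusted p = 0.000628, stable), Rab1a fell by 0.41 and Cdc42, chosen after its values were seen, rose by 0.54. Of 41 genes of vesicle coats and Golgi transport Ergic1 (0.66), Cope (0.57) and Copa (0.37) rose and Copz1 (-0.53) and Tmed10 (-0.45) fell. The calls given here by their log2 value alone were lost without either LPS + DEX library.

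The actin cytoskeleton had 8 rises and 5 falls among 47 genes (17.0% and 10.6%, against 3.14% and 3.55% of all genes tested). The median was -0.01. Under median-of-ratios scaling 7 rose. Both cytoplasmic actin genes rose. Actb stood at 9924 and 9652 CPM in LPS + DEX libraries, against 7734 and 7645 CPM in LPS libraries (0.35 ± 0.08, limma adjusted p = 0.0232), and Actg1 at 3782 and 3308 CPM, against 2597 and 2610 CPM (0.44 ± 0.08, limma adjusted p = 0.00398). Coro1a, which encodes coronin of leukocytes, was at 737 and 728 CPM in LPS + DEX libraries, against 506 and 522 CPM in LPS libraries (0.51 ± 0.08, limma adjusted p = 0.00187, stable). Vcl (0.79), Flna (0.63), Capzb (0.45), Arpc1b (0.42) and Myh9 (0.34) rose as well. The thymosins, which hold actin monomers, fell: Tmsb10 had 21.8 and 20.7 CPM in LPS + DEX libraries and 69.9 and 59.6 CPM in LPS libraries (-1.56 ± 0.20, limma adjusted p = 0.000313, stable). Tmsb4x had 604 and 693 CPM in LPS + DEX libraries and 1075 and 926 CPM in LPS libraries (-0.63 ± 0.16, limma adjusted p = 0.0316). Evl, an Ena/VASP protein gene, had 1.81 and 1.64 CPM, or 3 reads, in each LPS + DEX library, against 15.7 and 13.4 CPM in LPS libraries and 76.3 and 29.6 CPM in basal libraries. The cofilin gene Cfl1 (-0.35) and the tropomyosin gene Tpm4 (-0.43) also fell. Actg1, Arpc1b, Myh9 and Cfl1 were chosen after their values were seen. Of 20 tubulin and microtubule genes Dynll2 alone passed (-0.82). The calls of Coro1a and Tmsb10 were stable; that of Actg1 was lost without LPS + DEX replicate 1 or either LPS library, at 0.35 to 0.54, and those of the other genes of this group at least without LPS + DEX replicate 2.

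Calcium-binding proteins were looked at after their values were seen. Of 6 S100 genes tested 3 fell and none rose, with a median of -0.63; under both other scalings 4 fell. S100a4 had 544 and 642 CPM in LPS + DEX libraries, against 1014 and 1016 CPM in LPS libraries and 622 and 625 CPM in basal libraries (-0.78 ± 0.09, limma adjusted p = 0.000159, stable). S100a6 had 73.8 and 67.1 CPM in LPS + DEX libraries and 128 and 154 CPM in LPS libraries (-0.99 ± 0.17), and S100a11 had 30.2 and 34.4 CPM and 53.0 and 65.7 CPM (-0.85 ± 0.21). S100a10 did not pass, at 102 and 122 CPM in LPS + DEX libraries and 169 and 146 CPM in LPS libraries (limma adjusted p = 0.0546). Calm2, a calmodulin gene, had 446 and 426 CPM in LPS + DEX libraries and 729 and 756 CPM in LPS libraries (-0.77 ± 0.10, limma adjusted p = 0.000372, stable). The calls of S100a6 and S100a11 were lost without LPS + DEX replicate 2, at -1.12 to -0.85 for S100a6 over the 4 fits.

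Among splicing factors 12 of 66 rose (18.2%, against 3.14% of all genes tested), with 1 fall and a median of 0.07. Under both other scalings 11 rose. The largest were Sf3a2, a subunit of the U2 particle, at 114 and 124 CPM in LPS + DEX libraries and 67.5 and 69.3 CPM in LPS libraries (0.79 ± 0.14, limma adjusted p = 0.00439), and Srsf2, an SR protein gene, at 257 and 306 CPM and 166 and 166 CPM (0.75 ± 0.12, limma adjusted p = 0.00149). Snrpg, a core Sm protein gene, rose by 0.67 and Hnrnpa0 by 0.63. Snrpe, another Sm protein gene, was the only fall, at 166 and 173 CPM in LPS + DEX libraries and 300 and 281 CPM in LPS libraries (-0.78 ± 0.11, limma adjusted p = 0.000609, stable). None of the 12 rises was stable: without LPS + DEX replicate 1, LPS + DEX replicate 2, LPS replicate 1 and LPS replicate 2, 2, 0, 3 and 6 genes of the list were called higher.

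Histone footprints fell in part. Of 59 genes listed as replication-dependent histones 1 rose and 7 fell, with a median of 0.02. The list also holds H1f0, a linker histone gene not tied to replication, which did not pass. Under both other scalings none rose and 9 fell. The falls were all in H2B genes, such as Hist1h2ba at 195 and 226 CPM in LPS + DEX libraries and 314 and 302 CPM in LPS libraries (-0.55 ± 0.13, limma adjusted p = 0.0181) and Hist1h2bq at 634 and 692 CPM and 954 and 927 CPM (-0.50 ± 0.10, limma adjusted p = 0.0101). Hist1h2bc and Hist1h2bp both fell by 0.47. H2B coding sequences are closely related, so these 7 calls cannot be taken as independent of each other. Hist2h2aa1, an H2A gene, rose (0.43). Both basal libraries stood above both LPS libraries for each of the 7 genes, with Hist1h2bq at 1186 and 1520 CPM. Among 34 other chromatin genes 5 fell and 1 rose. The nucleosome-binding genes Hmgn2 and Hmgn1 fell. Hmgn2 had 268 and 194 CPM in LPS + DEX libraries and 360 and 392 CPM in LPS libraries (-0.72 ± 0.14), and Hmgn1 had 152 and 131 CPM in LPS + DEX libraries and 217 and 206 CPM in LPS libraries (-0.58 ± 0.12). Cbx1 (-0.64) and Suz12 (-0.56) fell, and the maintenance methyltransferase gene Dnmt1 rose to 463 and 514 CPM, against 341 and 305 CPM in LPS libraries (0.59 ± 0.11, limma adjusted p = 0.00422). All of these calls were lost without LPS + DEX replicate 2.

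A few cell-cycle genes rose. E2f4, a repressor of cycle genes, had 81.7 and 75.8 CPM in LPS + DEX libraries, against 36.2 and 32.9 CPM in LPS libraries and 84.0 and 90.1 CPM in basal libraries (1.17 ± 0.16, limma adjusted p = 0.000541, stable). Birc5, which encodes survivin, had 123 and 112 CPM in LPS + DEX libraries, against 62.7 and 49.9 CPM in LPS libraries and 144 and 153 CPM in basal libraries (1.06 ± 0.15, limma adjusted p = 0.00058, stable). Cdk4 and Trp53 each rose by 0.54, and LPS alone lay below both other groups for all 4 genes. In all, 3 of 21 genes of the G1 phase rose (14.3%, against 3.14% of all genes tested). The rises among 48 mitotic regulators (Birc5 and Bub3, 4.17%) and 38 replication genes (Fen1 and Mcm4, 5.26%) were near that share. Nusap1 (-0.60) was the only fall among these lists. Bnip3, a mitophagy receptor gene, fell to 15.1 and 14.7 CPM in LPS + DEX libraries, against 43.4 and 36.5 CPM in LPS libraries (-1.36 ± 0.22, limma adjusted p = 0.0019, stable), and Bcl2a1b (-0.83) fell with it among 30 apoptosis regulators. No gene passed among 22 of autophagy or 22 MAP kinases and their activators. Apart from E2f4, Birc5 and Bnip3, these calls were lost without LPS + DEX replicate 2.

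In metabolism the changes were scattered. Of 24 genes of cholesterol synthesis and its control 20 were above 0, with a median of 0.28, and 1 rose and 1 fell. Fdft1, the squalene synthase gene, fell to 76.2 and 84.5 CPM, against 218 and 164 CPM in LPS libraries and 84.7 and 65.1 CPM in basal libraries (-1.23 ± 0.17, limma adjusted p = 0.000533, stable). Fasn, the fatty acid synthase gene, rose to 1065 and 1175 CPM, against 779 and 753 CPM in LPS libraries (0.55 ± 0.08, limma adjusted p = 0.00107), and Acsl1 rose by 0.80. Glycolysis had 3 rises (Hk2, Gpi1 and Pkm) and 3 falls (Tpi1, Pgk1 and Pgam1) among 22 genes, with 2 rises under the other scalings. Hexokinase 2 (Hk2) was at 276 and 275 CPM in LPS + DEX libraries and 169 and 196 CPM in LPS libraries (0.60 ± 0.13), and Tpi1 at 901 and 814 CPM and 1243 and 1214 CPM (-0.52 ± 0.09). Gapdh did not pass, at 3918 and 3920 CPM in LPS + DEX libraries and 3664 and 3719 CPM in LPS libraries. The nucleotide synthesis genes Pfas (0.55), Impdh2 (0.46) and Cad (0.32) rose among 23. Apart from Fdft1, these calls were lost without LPS + DEX replicate 2.

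Among genes of iron handling 3 of 15 fell (20%, against 3.55% of all genes tested). Lysosomal genes were near the shares of all genes, with 2 of 37 lower (5.41%) and 1 higher (2.70%, against 3.14%). Fth1, the ferritin heavy chain gene, was at 740 and 729 CPM in LPS + DEX libraries, against 1130 and 1111 CPM in LPS libraries and 815 and 836 CPM in basal libraries (-0.61 ± 0.08, limma adjusted p = 0.000289, stable). Tfrc, the transferrin receptor gene, fell by 0.49 and the metal transporter gene Slc11a1 by 0.55, and none rose among 15 genes of iron handling. Ctsl, which encodes a lysosomal protease, fell to 366 and 318 CPM in LPS + DEX libraries, against 608 and 599 CPM in LPS libraries (-0.82 ± 0.10, limma adjusted p = 0.000211, stable), Ctsd by 0.29, and the cholesterol carrier gene Npc2 rose by 0.50 among 37 lysosomal genes. Atp6v1d, a subunit of the proton pump, was at 79.2 and 73.1 CPM in LPS + DEX libraries, 146 and 300 CPM in LPS libraries and 77.8 and 73.7 CPM in basal libraries (-1.45 ± 0.24, limma adjusted p = 0.002). Sod2 (-0.38) was the only call among 24 antioxidant genes. Of secreted proteases chosen after their values were seen, Mmp12 fell to 4.84 and 9.82 CPM, against 28.9 and 28.0 CPM in LPS libraries (-1.89 ± 0.33, limma adjusted p = 0.00315), and Plau to 162 and 117 CPM, against 235 and 208 CPM (-0.68 ± 0.15, limma adjusted p = 0.0124). The fatty acid-binding protein genes Fabp4 (-1.11) and Fabp5 (-0.28) and the galectin gene Lgals3 (-0.53), chosen likewise, fell too. In the proteasome Psma6 rose (0.62) and Psmc6 (-0.62) and Psma2 (-0.34) fell among 38 genes. Apart from Fth1, Ctsl and Mmp12, these calls were lost without LPS + DEX replicate 2, and that of Mmp12 without LPS + DEX replicate 1.

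Falls were more frequent among genes with little mRNA in these cells. Genes were split at a mean of 10 CPM over the 4 LPS + DEX and LPS mRNA libraries, a level chosen after the values were seen. Below it 8 of 679 tested genes rose (1.18%) and 73 fell (10.8%). At or above it 270 of 8168 rose (3.31%) and 241 fell (2.95%). Falls of at least 1 unit on the log2 scale numbered 62 below the split and 64 at or above it. A split at 5 CPM gave 3 rises and 49 falls among 188 genes, and one at 20 CPM gave 21 and 100 among 2244. Replication-dependent histone mRNAs lack poly(A) tails, and 42 genes of the histone list were among the 679, with 7 of the falls. A gene near 0 in one group passed the filter on reads only through the other group, so these shares are a description.

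Kprp, a gene of the skin's cornified layer, had 0.605 and 0 CPM in LPS + DEX libraries, against 61.5 and 79.1 CPM in LPS libraries and 0.763 and 0.658 CPM in basal libraries. The axonemal gene Ccdc114 had 0.605 and 1.09 CPM in LPS + DEX libraries, against 82.0 and 88.8 CPM in LPS libraries. Both are at 1 or 2 reads or none with DEX, so no fold is given. The transcription factor gene Dmrta2 had 6.65 and 3.27 CPM in LPS + DEX libraries, against 96.5 and 198 CPM in LPS libraries (log2 difference -4.61). Its basal libraries held 4.58 and 1.97 CPM. Dmrta2 passed the filter on reads only through the LPS libraries, so its difference is a description. The receptor subunit gene Gabre had 5.44 and 7.09 CPM in LPS + DEX libraries, against 92.8 and 92.5 CPM in LPS libraries and 18.3 and 23.7 CPM in basal libraries (-3.70 ± 0.26, limma adjusted p = 8.16e-07, stable). In each of these 4 genes the LPS libraries stood above every other footprint library. C1qtnf5, the protease inhibitor gene Spint5, the protease gene Prss28 and the glycosyltransferase gene Large2 showed the same order of groups. Tbx3, Lrriq1, Nckap1, Col13a1, Hdc and Arhgap6 were at 3.63 CPM or less in both LPS + DEX libraries. The calls of Tbx3, Nckap1, Hdc, Arhgap6 and Col13a1 were each lost without at least 1 library.

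Rises beside Dusp1 also included genes with far more footprints than mRNA. Dchs1, a large cadherin gene, had 1686 and 1132 CPM of footprints in LPS + DEX libraries, against 289 and 118 CPM in LPS libraries and 635 and 977 CPM in basal libraries (2.90 ± 0.30, limma adjusted p = 5.12e-05, stable), with mRNA between 16.6 and 24.5 CPM in the LPS + DEX and LPS libraries. Neurl4, a gene of centriole function, had 1499 and 945 CPM in LPS + DEX libraries, against 256 and 93.7 CPM in LPS libraries and 85.5 and 76.3 CPM in basal libraries (2.93 ± 0.32, limma adjusted p = 6.92e-05, stable). Fibcd1 (281 and 196 CPM in LPS + DEX libraries, 32.5 and 30.4 CPM in LPS libraries), Kitl (141 and 129 CPM, 26.5 and 12.2 CPM) and Ccn2 (110 and 109 CPM, 24.1 and 14.6 CPM) rose with stable calls. Kitl encodes stem cell factor and Ccn2 a matricellular growth factor. In these 3 genes basal libraries stood at 221 and 113 CPM, 119 and 57.9 CPM and 64.9 and 107 CPM, above the LPS libraries. Gm7367 also rose with a stable call (1.82), and Synpo2 (1.69) and Fblim1 (2.07) rose with calls lost without either LPS + DEX library. Sez6l, Nlrp14, Mapk8ip2 and 4933415A04Rik rested on 3 reads or fewer in each LPS library and had at most 37.5 CPM.

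**Figure D4:**
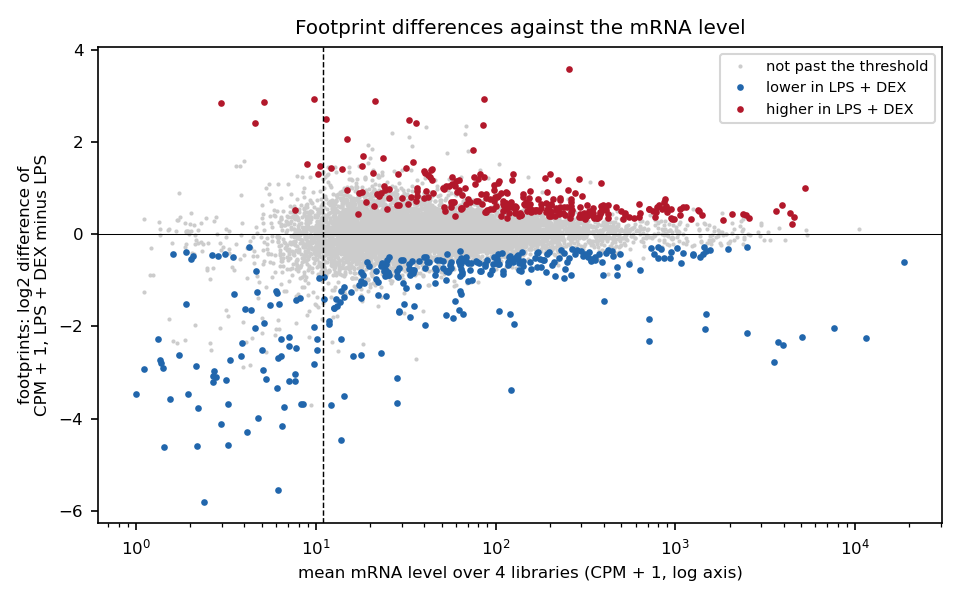
Footprint log2 difference (LPS + DEX minus LPS, of CPM + 1) of each of 8847 genes against its mean mRNA level over the 4 LPS + DEX and LPS mRNA libraries (CPM + 1, log axis); coloured points passed the threshold and the dashed line marks 10 CPM. Left of the line 73 genes fell and 8 rose, and falls there reach beyond -4.

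Few markers of cells other than macrophages were listed. Of 14 markers of fibroblasts and epithelium 4 were listed and 3 tested. Col3a1, a fibrillar collagen gene, rose to 134 and 128 CPM in LPS + DEX libraries, against 65.1 and 60.8 CPM in LPS libraries and 142 and 115 CPM in basal libraries (1.04 ± 0.14, limma adjusted p = 0.000533, stable). Acta2 had 59.9 and 56.2 CPM in LPS + DEX libraries and 37.4 and 36.5 CPM in LPS libraries, and Ddr1 had 16.9 and 33.3 CPM and 45.8 and 73.0 CPM. Summed, footprints of the 4 listed markers stood at 212 and 217 CPM in LPS + DEX libraries, 151 and 173 CPM in LPS libraries and 218 and 181 CPM in basal libraries. Their mRNA summed to 2075 CPM in basal replicate 1, against 34.1 CPM in basal replicate 2 and at most 111 CPM in LPS + DEX and LPS libraries. Listed markers of endothelium, erythroid cells and neurons summed to 447 CPM of mRNA in basal replicate 1, against 10.8 CPM in basal replicate 2. Basal replicate 1 entered the main mRNA fit and the fit over 12 libraries. The part of other cells in any result was not tested.

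Few mRNA levels passed the test. Over 9277 genes none was called higher or lower between LPS + DEX and LPS mRNA in limma, with 183 at an unadjusted p under 0.05. With only the 4 libraries compared, 6 were called higher (0.0647%): Dusp1, Tnfaip3, Per1, Sdc4, Ccrl2 and B4galt4, of which Sdc4, Ccrl2 and B4galt4 were chosen after their values were seen. Their footprints did not all follow. Sdc4, which encodes syndecan-4, had 245 and 206 CPM of mRNA in LPS + DEX libraries and 76.2 and 102 CPM in LPS libraries, while its footprints were at 162 and 130 CPM and 144 and 146 CPM, with overlapping groups. B4galt4, a galactosyltransferase gene, had 1908 and 1269 CPM of mRNA in LPS + DEX libraries and 21.9 and 218 CPM in LPS libraries, but 0 and 1.64 CPM of footprints with DEX and 1.21 and 0 CPM with LPS alone. Ccrl2, an atypical chemokine receptor gene, had 27.2 and 21.3 CPM of footprints in LPS + DEX libraries and 12.1 and 13.4 CPM in LPS libraries (limma adjusted p = 0.251).

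Across the called genes, mRNA leaned the way the footprints moved. Of 276 genes with raised footprints and an mRNA test, 204 had a positive mRNA difference (73.9%, against 53.1% of all genes tested), and of 269 with lowered footprints 199 had a negative one (74.0%, against 46.9%). The mRNA differences were small, with medians of 0.18 and -0.13, beside footprint medians of 0.63 and -0.80. Among lowered genes below 10 CPM of mRNA, 10 of 28 had a negative mRNA difference. The footprint change departed from the mRNA change in 5 of 9412 genes (0.0531%, with 0.0106% higher and 0.0425% lower) in one limma fit over all 12 libraries, and in 71 when only the 8 libraries compared entered, 16 higher and 55 lower. In the fit over 12 libraries Sdhb was the 1 gene called higher in footprints than in mRNA, with mRNA at 395 and 358 CPM in LPS + DEX libraries and 406 and 380 CPM in LPS libraries (1.17 ± 0.15, limma adjusted p = 0.0186). In the other 4, Gabre, Gm20594, Ttn and Dok1, the call was lower; Gm20594, Ttn and Dok1 were chosen after their values were seen. Dok1, which encodes an adaptor that restrains tyrosine kinase signalling, had 51.4 and 38.2 CPM of footprints in LPS + DEX libraries, against 148 and 152 CPM in LPS libraries and 54.2 and 42.8 CPM in basal libraries, and mRNA at 69.2 and 65.1 CPM and 58.5 and 65.5 CPM (-1.85 ± 0.26, limma adjusted p = 0.0186). Whether both kinds of library came from the same cultures is not stated.

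**Figure D5:**
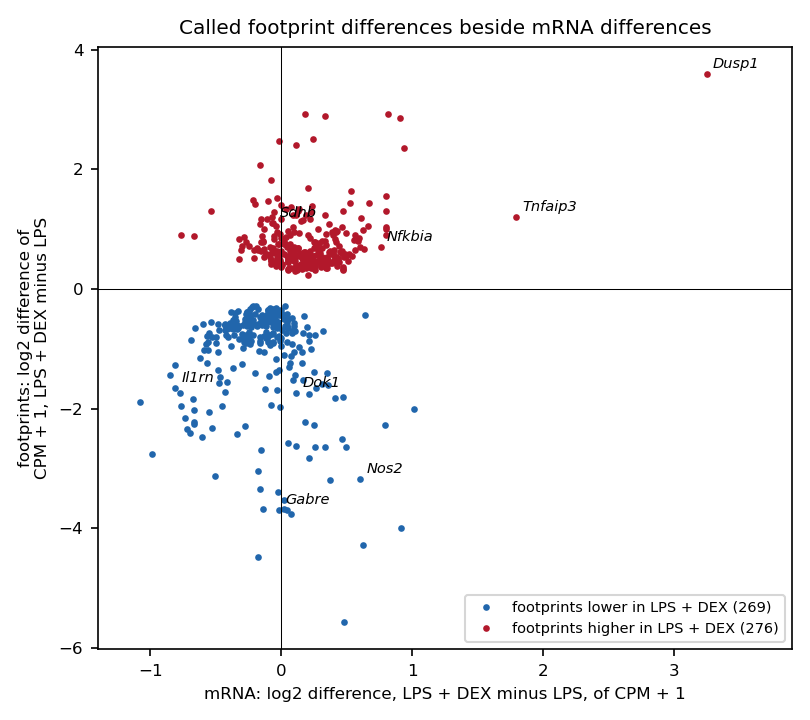
Footprint log2 difference against mRNA log2 difference (both LPS + DEX minus LPS, of CPM + 1) of the 276 raised and 269 lowered genes with an mRNA test; points are genes. Dusp1 lies highest, with an mRNA difference of 3.25, while most called genes keep within 1 of 0 on the mRNA axis.

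Against basal cells, LPS alone raised the footprints of 292 genes and lowered those of 382 (3.3% and 4.32% of those tested, 7.62% together). This comparison shares the LPS libraries with the one above, so the values are only set side by side. LPS-induced genes differed in what DEX added: Tnf, Nfkbia and Dusp1 were at log2 differences of 4.55, 1.21 and 1.33 for LPS against basal, and at -0.45, 0.71 and 3.59 for LPS + DEX against LPS. For Sdhb, Ndufb7, Arf1, E2f4 and Birc5 the differences of LPS against basal were -0.86, -1.23, -0.88, -1.31 and -1.39, beside 1.11, 1.31, 0.83, 1.17 and 1.06 for LPS + DEX against LPS. For mt-Co1, Fdft1, Dok1 and S100a4 they were 1.61, 1.34, 1.62 and 0.70, beside -2.25, -1.23, -1.74 and -0.78. The LPS libraries enter these differences with opposite signs.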

How the data were processed

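RAW264 cells were profiled by Ribo-Seq and by sequencing of poly(A) mRNA, prepared by Ion Torrent protocols per the labels. For the aligner, counter and genome build, the entry is: not given in the sources used here. The deposited values are CPM plus 1, not scaled by gene length, and subtracting 1 and dividing by the smallest step gave whole reads for 100% of values within 0.1 read. Genes were named through a table of Ensembl identifiers. The main test was limma 3.58.1 in R 4.3.3, with a trended variance, on log2(CPM + 1) over the 6 footprint libraries, two-sided, with Benjamini-Hochberg adjustment over all 8847 genes tested and a threshold of 0.05. A gene entered with 10 reads or more, reckoned at the median depth, in 2 libraries, and 15 in all. No fold is given where a group had 3 reads or fewer in both libraries. The step was also run on simulated reads with the same spread for all genes, and changes were planted only in genes at a mean of 50 CPM or more. That run does not cover low genes or small changes. The numbers of the replicates were not taken to pair libraries. P-values and SEs weigh a difference against the spread between libraries of a group. That spread was pooled over all libraries of a fit, basal ones included in the main fits, and moderated over genes.

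The members and gene lists were chosen with earlier results of these data known. Genes named were the 15 largest rises and falls with groups that did not overlap and at least 10 reads on average in the higher group, a preset list of inflammatory and glucocorticoid genes, up to 4 rises and 4 falls of each gene list, and the members of lists of 13 or fewer genes. Others are said to be chosen after their values were seen. A few genes that the rule names are not reported here, though counts over lists include them. Alternatives covered the pseudocount, scaling, filter, libraries fitted, limma-voom on recovered reads, a replicate block and each library left out.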

Additional observations from a re-analysis of the deposited data

How the results depend on the processing

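The 278 raised and 314 lowered footprint genes became 117 and 156 with no filter on low values, where all 9621 listed genes were tested. Leaving out 1 of the 6 footprint libraries gave 35 to 414 raised and 68 to 462 lowered genes, and only the 4 libraries compared gave 406 and 461. Under every other alternative run both counts stayed within 1.5 times, from 225 to 284 raised and from 218 to 330 lowered. None of the 592 called genes changed direction under any alternative run. Under most alternatives this was fixed beforehand. The LPS + DEX and LPS libraries overlapped for none of the called genes, so leaving out a library or changing the pseudocount could not turn a direction. Changing the filter, fitting only the 4 libraries compared and adding the replicate block left the log2 difference itself unchanged. Only the other scalings and limma-voom could have turned a direction. Among mRNA levels, 6 genes were higher with only the 4 libraries compared and 0 to 5 when 1 library was left out. The difference between footprint and mRNA changes was called in 71 genes with only the 8 libraries compared, against 5. The cause of these shifts was not tested.

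Directions of genes that did not pass turned when 1 library was left out, over these ranges of log2 difference: Ccl3 -0.0355 to 0.28, Cct4 -0.0491 to 0.12, Cct7 -0.0396 to 0.0944, Cct8 -0.14 to 0.0172, Cox4i1 -0.0500 to 0.0701, Cox7a2 -0.074 to 0.23, Cox7a2l -0.0483 to 0.23, Cxcl2 -0.48 to 0.33, Jund -0.12 to 0.42, Mafg -0.0136 to 0.26, Nr3c1 -0.15 to 0.49, Ptgs2 -0.0165 to 0.40, Sdc4 -0.15 to 0.16, Sdhc -0.24 to 0.0565, Sdhd -0.17 to 0.14, Uqcrc1 -0.14 to 0.0191 and Uqcrc2 -0.0945 to 0.0649. Median-of-ratios scaling gave -0.00425 for Cox4i1 and -0.0107 for Sdc4, scaling to reads outside the mitochondrially encoded genes gave -0.00528 and -0.0117, and limma-voom gave -0.00368 for Sdc4.

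With the replicate number as a replicate block, 284 genes were higher and 322 lower in footprints, 0 in mRNA in either direction, and 5 in the difference between them. Libraries with the same number did not deviate together: the correlation of deviations was -0.001 between LPS + DEX and LPS footprints, 0.108 between LPS + DEX and basal and -0.094 between LPS and basal. The planned count tests other than limma-voom were not run, since the values carry an added 1. With 2 libraries a group and the LPS libraries the shallowest, a difference that did not pass is not shown to be absent.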
